A study of Mus musculus with 26 samples.

Results

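Stroke cortex of mice fed the control diet for 15 weeks was compared with stroke cortex of mice fed the same diet for 6 weeks. All libraries carrying those labels were taken, 4 at 15 weeks and 4 at 6 weeks, which is 8 of the 26 libraries, and 16325 of the 39179 genes in the tables passed the filter on low counts. The mice were C57BL/6J, a common inbred laboratory strain, and the control diet took 6% of its calories from fat. Focal ischaemia was induced, and cortex holding the stroke core and a rim of tissue around it was taken on day 3 for stranded total RNA sequencing. The other libraries were 6 stroke libraries at 15 weeks and 6 at 6 weeks from mice on a diet with 60% of its calories from fat, and 3 sham libraries on each diet at 6 weeks. The labels give no age, sex or batch, so time on the diet, the age of the mice and separate handling of the 2 arms cannot be told apart. Nothing in them says that libraries came from separate animals, so the p-values describe how far these libraries vary and may hold technical spread alone.

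In the first days after a cortical stroke, the tissue holds dying and surviving neurons, reactive glia, infiltrating blood leukocytes and the first matrix-producing cells of the scar. Immediate early genes such as Fos and Junb are transcription factor genes that are switched on within minutes by neuronal firing or injury. Oxidative phosphorylation is the process by which mitochondria make ATP, using protein complexes whose subunits are encoded mostly in the nucleus. In bulk tissue, fewer cells of a type and less RNA per cell cannot be told apart.

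At 15 weeks, 39 genes were higher (0.239% of genes tested) and 53 were lower (0.325%) than at 6 weeks, 92 genes in all (0.564%), by edgeR's quasi-likelihood test with a Benjamini-Hochberg adjusted p under 0.05. The higher genes included the transcription factor genes Klf4, Junb and Creb3l1, the growth factor binding protein Igfbp5, the collagen chain Col6a2 and a group of satellite-like transcripts. The lower genes included 8 of 82 subunits of respiratory complexes I to V and 4 of 76 mitochondrial ribosome proteins, both sets taken by gene symbol after the values were seen, against 0.325% of all genes tested. Changes were small: the median size among called genes was 0.37 on the log2 scale, and 18 genes changed 1.5-fold or more, each of them higher at 15 weeks. In 80 of the 92 genes the 4 and 4 libraries did not overlap, against 9.38% of all genes tested. The calls were made on the same libraries, so this count describes them and is no separate support. The smallest adjusted p was 0.0357.

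The calls rest on few libraries. Without replicate 2, 3 or 4 of the 6-week group, or replicate 1 of the 15-week group, 0 genes were called, although 1867 to 2714 had an unadjusted p under 0.05, against 2742 (16.8%) with all libraries. Without 15-week replicate 4 the count was 1, without 15-week replicate 3 it was 19 and without 6-week replicate 1 it was 59. With RLE in place of TMM scaling, 31 genes were higher and 13 lower. The direction of all 92 genes was kept in every one of the 20 alternatives that gave a value.

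Libraries of the comparison held between 11400882 and 15427472 counts in genes. The share of counts that fell outside genes was 26.8%, 22.7%, 27.9% and 25.5% at 15 weeks, against 21.7%, 18.9%, 22.6% and 22.2% at 6 weeks. The groups did not overlap (exact two-sided permutation p = 0.0286, the smallest that 4 against 4 allows, 0.0571 adjusted over 4 library measures). On the high-fat diet the same share was 27.4% ± 3.29 at 15 weeks and 21.6% ± 0.821 at 6 weeks (SD, n = 6 each; exact permutation p = 0.00217, adjusted 0.00866). With this share as a covariate in edgeR, 0 genes were called between 15 and 6 weeks on the control diet, and 1403 had an unadjusted p under 0.05. An injury score was made from the genes called between 6-week high-fat stroke and high-fat sham (23.1% of genes), with 0 set to that sham group and 1 to that stroke group. It was 1.14, 1.04, 0.383 and 0.845 at 15 weeks, against 0.669, 0.978, 0.81 and 0.579 at 6 weeks. Replicate 3 of the 15-week group thus stood below every 6-week library, replicates 1 and 2 stood above every 6-week library, and replicate 4 lay within the 6-week range. With the score as a covariate, all 92 genes were called again, among 362.

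Klf4, a zinc finger transcription factor gene that many cell types switch on early after a stimulus, had 7.44, 7.32, 7.88 and 4.66 CPM (counts scaled to library size, with TMM factors) at 15 weeks, against 3.94, 2.74, 3.87 and 2.57 CPM at 6 weeks. Every 15-week library was above every 6-week one. The log2 fold change was 1.06 ± 0.18 (SE; edgeR adjusted p = 0.0357), and the call was kept in 11 of 20 alternatives, as many as for any called gene. Junb, a subunit of the AP-1 transcription factor, had 88.1, 98.2, 97.9 and 68.1 CPM at 15 weeks, against 61.8, 47.6, 58.6 and 42.6 CPM at 6 weeks. The groups did not overlap, and 15-week replicate 3, low in injury score, was among the highest (log2 fold change 0.74 ± 0.17, edgeR adjusted p = 0.0448). The 3 control-diet sham libraries, all from 6 weeks, had 69.1, 68.8 and 90 CPM of Junb, above each 6-week stroke library of that diet. On the high-fat diet the order was the other way, with 28.5, 50.6 and 38.3 CPM in sham. The log2 fold change of 6-week stroke over sham was 0.75 there (edgeR adjusted p = 0.00375).

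Of the immediate early gene list, 1 of 16 members rose (Junb) and 0 fell; 9 had an unadjusted p under 0.05 upwards, against 7.12% of all genes. The median log2 fold change over the list was 0.56, against 0.00 over all genes tested. Fos, the partner of Junb in AP-1, had 46.3, 52.3, 50.7 and 34 CPM at 15 weeks, against 21, 31.9, 25.5 and 15.9 CPM at 6 weeks. These groups did not overlap either, but the adjusted p of 0.112 in edgeR missed the threshold (log2 fold change 0.96 ± 0.28). The orphan nuclear receptor genes Nr4a1 and Nr4a3 had log2 fold changes of 0.76 ± 0.24 and 0.71 ± 0.21 (edgeR adjusted p = 0.138 and 0.119). The list mean was 4.76, 4.97, 5.08 and 4.50 log2 CPM at 15 weeks, against 4.37, 4.51, 4.49 and 3.98 at 6 weeks. Replicate 4 was the lowest of each group, and 15-week replicate 4 lay within the 6-week range. On the high-fat diet, whose libraries are separate, the list median was 0.00 and no member was called.

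The promoters of these genes are shown because Klf4 and Junb were called and Fos encodes the AP-1 partner of Junb. The sequences are RefSeq's, build GRCm38.p6, and run from 250 bases before to 50 after the annotated start, at chr4:55532426-55532725 on the minus strand for Klf4, chr8:84978699-84978998 on the minus strand for Junb and chr12:85473640-85473939 on the plus strand for Fos. Capitals mark TGACG on either strand, the core of the site bound by CREB family factors.
Klf4: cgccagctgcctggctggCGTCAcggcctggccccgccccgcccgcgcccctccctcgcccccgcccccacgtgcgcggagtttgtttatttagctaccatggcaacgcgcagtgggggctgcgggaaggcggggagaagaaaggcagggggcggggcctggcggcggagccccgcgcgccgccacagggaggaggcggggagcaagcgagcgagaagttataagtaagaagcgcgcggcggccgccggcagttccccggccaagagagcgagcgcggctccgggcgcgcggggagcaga
Junb: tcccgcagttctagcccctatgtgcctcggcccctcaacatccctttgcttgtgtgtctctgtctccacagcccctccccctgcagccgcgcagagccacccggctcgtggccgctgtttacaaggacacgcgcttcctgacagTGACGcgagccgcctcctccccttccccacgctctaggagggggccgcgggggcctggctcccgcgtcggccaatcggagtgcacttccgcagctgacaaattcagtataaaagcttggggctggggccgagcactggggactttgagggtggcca
Fos: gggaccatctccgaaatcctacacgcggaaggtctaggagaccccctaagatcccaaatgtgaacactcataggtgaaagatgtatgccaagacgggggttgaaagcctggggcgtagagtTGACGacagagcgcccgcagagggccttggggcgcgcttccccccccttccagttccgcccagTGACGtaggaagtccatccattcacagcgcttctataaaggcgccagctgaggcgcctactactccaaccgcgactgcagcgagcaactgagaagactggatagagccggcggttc
The Klf4 and Junb windows hold TGACG 1 time each and the Fos window holds it 2 times. It was found in 11 of the 12 immediate early genes with a promoter in the table, or 13 of their 16 promoters (81.2%), and in 6837 of 32851 promoters of that length (20.8%). A match is a description of letters and no evidence of binding.

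Other genes of transcriptional control were also among the called ones. Creb3l1, a membrane-bound CREB-like factor known for switching on collagen genes, was at 1.6, 1.88, 0.885 and 1.51 CPM at 15 weeks, against 0.211, 0.509, 0.616 and 0.461 CPM at 6 weeks. The groups did not overlap (log2 fold change 1.72 ± 0.35, edgeR adjusted p = 0.0357) at a low level. Hdac7, a class IIa histone deacetylase, rose by 0.68 ± 0.16 on the log2 scale. Crtc2, a coactivator of CREB, rose by 0.46 ± 0.10 and Nfix, a nuclear factor I gene, by 0.50 ± 0.10; both were picked out after their values were seen. No circadian clock gene was called (0 of 18 by edgeR). At an unadjusted p under 0.05, 5 were higher and 2 lower, against 7.12% and 9.68% of all genes. The clock genes of smallest p were Bhlhe40 (log2 fold change 0.51 ± 0.13, edgeR adjusted p = 0.077), Ciart (0.67 ± 0.18, adjusted p = 0.084) and Per1 (0.67 ± 0.18, adjusted p = 0.095). Arntl, which runs in antiphase to Per1 in the clock, was at -0.30 ± 0.10 (edgeR adjusted p = 0.159). The hour of tissue collection is not given in the labels.

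**Figure D1:**
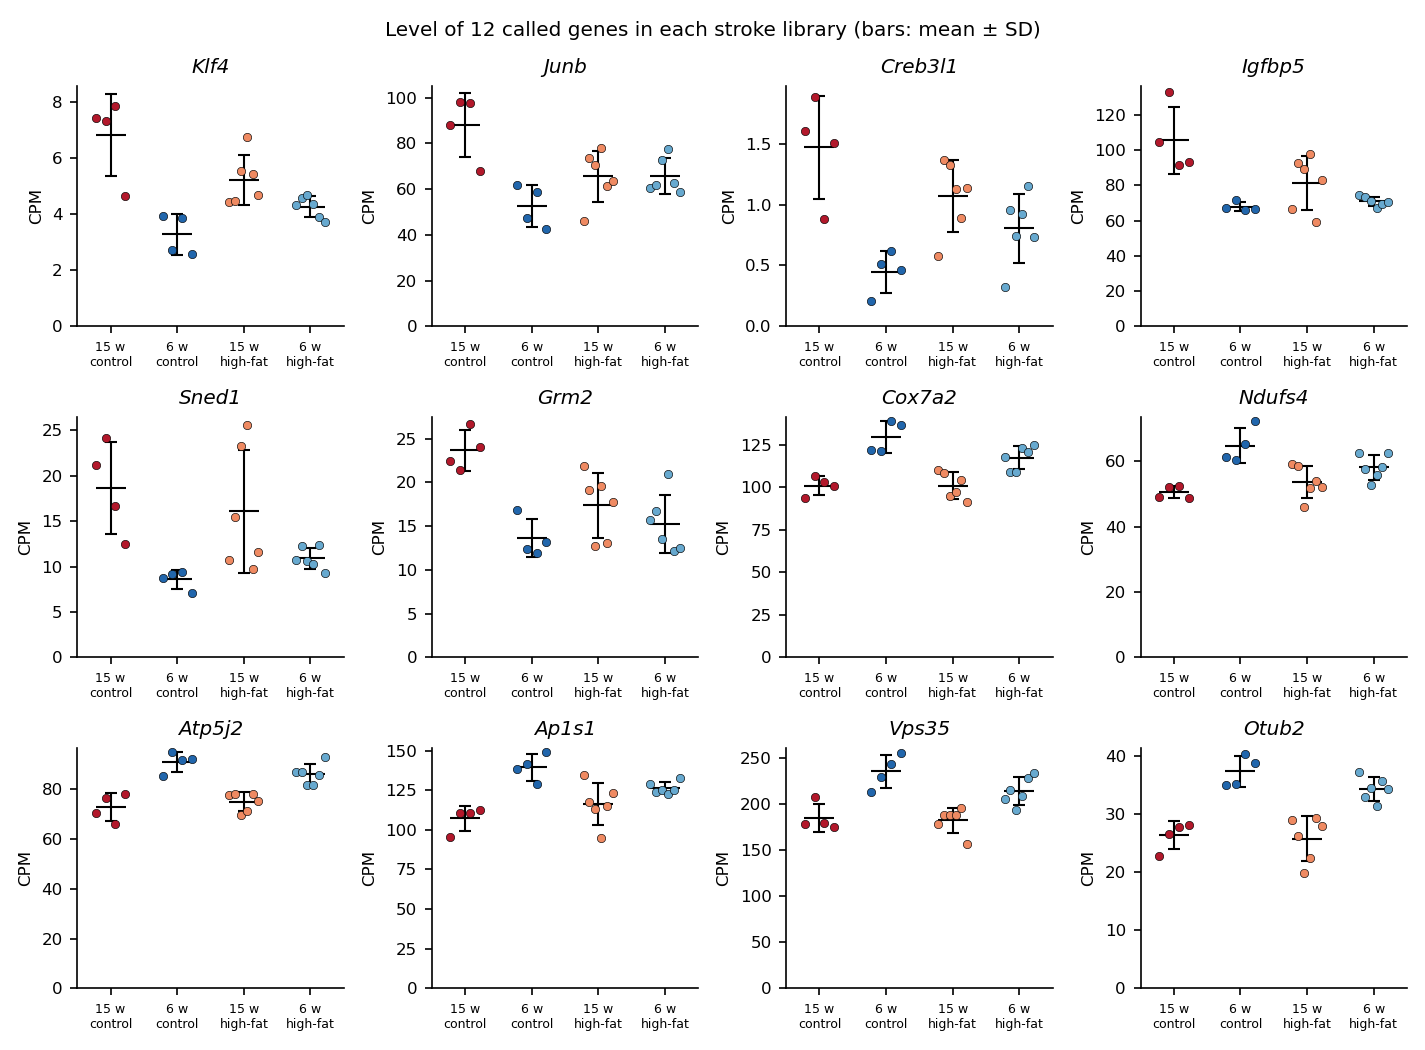
Level of 12 called genes in CPM (vertical axis from 0) in each of the 20 stroke libraries, by weeks and diet. Points are libraries and bars are means ± SD (n = 4 for each control-diet group, 6 for each high-fat group). On the control diet the 15-week points lie above the 6-week points for Klf4, Junb, Creb3l1, Igfbp5, Sned1 and Grm2, and below them for Cox7a2, Ndufs4, Atp5j2, Ap1s1, Vps35 and Otub2.

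Among genes of the matrix and the cell surface, Igfbp5, a secreted binding protein of insulin-like growth factors, had 104, 133, 91.8 and 93.2 CPM at 15 weeks, against 67.2, 71.7, 66.2 and 66.6 CPM at 6 weeks. The 6-week libraries lay close together and all 15-week libraries were above them (log2 fold change 0.64 ± 0.12, edgeR adjusted p = 0.0357). Sned1, an extracellular matrix glycoprotein, was at 21.2, 24.2, 16.7 and 12.5 CPM at 15 weeks, against 8.72, 9.17, 9.42 and 7.04 CPM at 6 weeks, with no overlap (1.12 ± 0.26, edgeR adjusted p = 0.0448). Col6a2, a chain of the microfibrillar collagen VI, rose by 0.74 ± 0.16 with 15.9, 14.4, 15.5 and 13.1 CPM at 15 weeks, against 10.6, 7.26, 9.07 and 8.36 CPM at 6 weeks. The naming rule asked for no overlap, so 15-week replicate 3, the library low in injury score, had to be above every 6-week library for these genes. Grm2, a presynaptic metabotropic glutamate receptor, rose by 0.79 ± 0.17 and Arhgef1, an exchange factor of the GTPase RhoA, by 0.56 ± 0.11.

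Igfbp5, Sned1 and Col6a2 were named under a rule that asked for no overlap, and the other matrix genes below were not held to it. Of the 20 genes of the extracellular matrix and fibroblast list, 1 rose (Col6a2) and 0 fell. All 20 had a log2 fold change above 0, against 8246 of all 16325 genes tested, with a median of 1.09. At an unadjusted p under 0.05 in edgeR, 13 were higher, against 7.12% of all genes. Col1a1, the main chain of collagen I, had 41.3, 50.2, 8.77 and 11.5 CPM at 15 weeks, against 6.68, 9.81, 12.9 and 5 CPM at 6 weeks. Replicates 1 and 2 at 15 weeks stood far above the rest, and replicates 3 and 4 lay within the 6-week range (log2 fold change 1.71 ± 0.54, edgeR adjusted p = 0.14). Fn1, which encodes fibronectin, showed the same order with 290, 342, 63 and 93.6 CPM at 15 weeks, against 69.8, 91.3, 129 and 44.3 CPM at 6 weeks (adjusted p = 0.224 in edgeR). The list mean was 5.47, 5.47, 3.45 and 4.15 log2 CPM at 15 weeks, against 3.72, 4.15, 4.19 and 3.35 at 6 weeks, and the groups overlapped. The injury score was also highest in 15-week replicates 1 and 2. With that score as a covariate the list median was 0.70 and with 1 surrogate variable it was 0.28. Anpep, an aminopeptidase of pericytes, had a log2 fold change of 1.54 ± 0.40 without overlap (edgeR adjusted p = 0.077).

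None of the leukocyte and glia lists held a gene called by edgeR. Of 20 activated phagocyte genes, 19 had a log2 fold change above 0, with a median of 0.43, but 0 were called and 1 had an unadjusted p under 0.05, in the lower direction. Lyz2, a lysozyme gene of macrophages, had 355, 313, 37.1 and 188 CPM at 15 weeks, against 71.7, 188, 141 and 47.7 CPM at 6 weeks (log2 fold change 1.00 ± 0.62, edgeR adjusted p = 0.428). The lowest of the 8 values was in the 15-week group. All 7 neutrophil genes tested were above 0 with a median of 0.71 (1 higher at an unadjusted p under 0.05), as were 13 of 16 monocyte and macrophage genes with a median of 0.48 (2 higher). The mean over 16 homeostatic astrocyte genes was 7.21 to 7.28 log2 CPM at 15 weeks and 7.29 to 7.33 at 6 weeks, with no overlap, a median of -0.09 and 2 genes lower at an unadjusted p under 0.05. The median was 0.32 over 21 reactive astrocyte genes, 0.35 over 20 cell cycle genes, -0.12 over 22 type I interferon genes and -0.02 over 12 homeostatic microglia genes, each with 0 called. Among 18 myelin genes and 18 cholesterol biosynthesis genes 0 were called, with medians of 0.04 and -0.03. Of genes reported higher with age in mouse brain, 0 of 20 were called and the median was 0.11. At an unadjusted p under 0.05 in edgeR, 1 cell cycle gene and 1 of the age-related genes were higher, 2 cholesterol genes were higher and 4 lower, and the reactive astrocyte, interferon, microglia and myelin lists held 0. Over all 16325 genes tested, 7.12% were higher and 9.68% lower at that threshold, and 8246 were above 0.

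**Figure D2:**
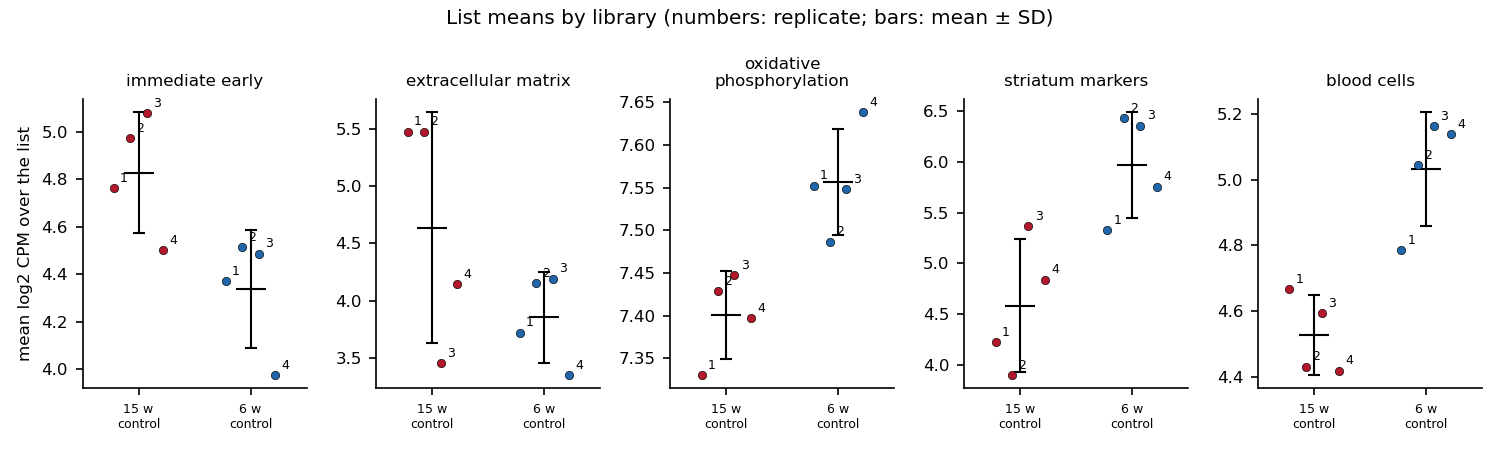
Mean log2 CPM over 5 gene lists in the 4 libraries at 15 weeks and the 4 at 6 weeks on the control diet. Numbers mark replicates and bars are means ± SD. The groups do not overlap for oxidative phosphorylation and blood cells, while for the extracellular matrix list replicates 3 and 4 at 15 weeks lie within the 6-week range.

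Subunits of the respiratory chain and the ATP synthase were among the lower genes. Cox7a2, a subunit of cytochrome c oxidase (complex IV), had 93.7, 107, 103 and 101 CPM at 15 weeks, against 122, 121, 139 and 137 CPM at 6 weeks. All 15-week libraries were below all 6-week ones (log2 fold change -0.36 ± 0.07, edgeR adjusted p = 0.0357). Ndufs4, a subunit of complex I, had 49.2, 52.1, 52.4 and 48.6 CPM at 15 weeks, against 61.2, 60.4, 65.2 and 72.2 CPM at 6 weeks, and fell by 0.36 ± 0.07 on the log2 scale. Atp5j2, a subunit of the ATP synthase (complex V), had 70.5, 76.5, 66.1 and 78 CPM at 15 weeks, against 85.2, 95, 91.6 and 91.9 CPM at 6 weeks (-0.32 ± 0.06). Both pairs of groups were apart. Ndufs4 and Atp5j2 were picked out after their values were seen. Sham libraries of the control diet had 129, 135 and 132 CPM of Cox7a2, near the 6-week stroke libraries.

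Of the 24 genes of the oxidative phosphorylation list, 2 fell (Cox7a2 and Atp5o, the stalk subunit of the ATP synthase) and 0 rose. Of these 24, 22 had a log2 fold change below 0 and 17 had an unadjusted p under 0.05 in that direction, against 9.68% of all genes. The list median was -0.16. Ndufa4, a complex IV subunit with a complex I name, missed the threshold with a log2 fold change of -0.32 ± 0.08 and an edgeR adjusted p of 0.051. The list mean was 7.33, 7.43, 7.45 and 7.40 log2 CPM at 15 weeks, against 7.55, 7.49, 7.55 and 7.64 at 6 weeks, with no overlap, and 7.63 to 7.70 in control-diet sham. Because this list is short, all subunits of complexes I to V were also taken by the start of their symbols, after the values were seen. Of 82 such genes, 8 fell and 0 rose, 78 were below 0 and the median was -0.18. Over all 16325 genes tested, 8079 were below 0. By complex as the symbols name it, 37 of 38 genes were below 0 in complex I, 3 of 4 in complex II, 8 of 8 in complex III, 14 of 15 in complex IV and 16 of 17 in complex V. Medians lay between -0.12 in complex II and -0.22 in complex III.

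Other called genes of mitochondrial proteins also fell, picked out after their values were seen. Uqcc2 and Ndufaf1, assembly factors of complexes III and I, were at -0.37 ± 0.09 and -0.34 ± 0.08. Prdx3, the peroxiredoxin of the mitochondrial matrix, was at -0.32 ± 0.06, and Fars2, the mitochondrial phenylalanine tRNA synthetase, at -0.35 ± 0.07. Of 76 mitochondrial ribosome proteins taken by symbol, 4 fell (Mrps24, Mrps14, Mrpl18 and Mrpl20) and 0 rose, with a median of -0.15. Of genes of the mitochondrial genome, 6 of the 10 tested were above 0 and 0 were called by edgeR, with 1 higher and 1 lower at an unadjusted p under 0.05. Their share of gene counts was 9.12% ± 0.692 at 15 weeks and 8.40% ± 0.205 at 6 weeks (SD, n = 4 each; exact permutation p = 0.114). The share of counts outside genes was higher at 15 weeks. Its part in the lower subunit levels was not tested beyond the values here. By replicate, the mean over the 82 subunits was 6.04, 6.11, 6.09 and 6.09 log2 CPM at 15 weeks. At 6 weeks it was 6.24, 6.21, 6.24 and 6.35 log2 CPM. The 15-week library of lowest share (22.7%, replicate 2) had the highest mean of its group. The 6-week library of lowest share (18.9%, replicate 2) had the lowest mean of its group. With the share outside genes as a covariate, the median over the 82 subunits was -0.14 and 0 were called. Without 15-week replicate 3 the median was -0.16, again with 0 called.

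**Figure D3:**
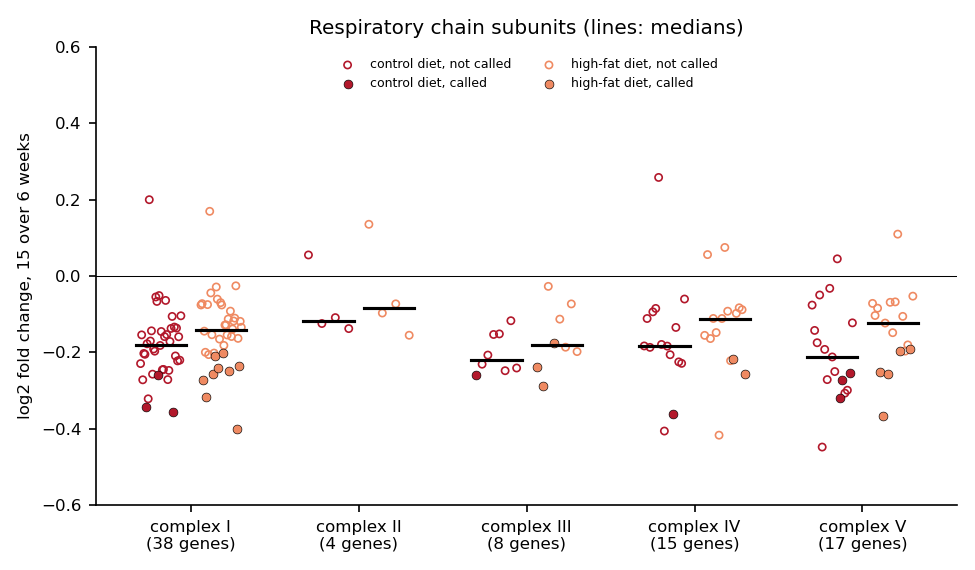
Log2 fold change of 15 over 6 weeks for 82 respiratory chain and ATP synthase subunits by complex, for each diet. Filled points were called by edgeR (adjusted p under 0.05) and lines are medians. On the control diet 78 of the 82 points lie below 0, with 8 called, and on the high-fat diet 19 were called.

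Among the remaining lower genes, Ap1s1, Vps35 and Atp6v0b were picked out after their values were seen. Ap1s1, a small subunit of the AP-1 clathrin adaptor, had 95.8, 110, 110 and 113 CPM at 15 weeks, against 139, 141, 129 and 149 CPM at 6 weeks, and fell by 0.38 ± 0.08. Its paralogue Ap1s2 had 34.9, 34.6, 35 and 29 CPM at 15 weeks, against 42.3, 45.1, 50.7 and 47.5 CPM at 6 weeks, and fell by 0.47 ± 0.11. The groups did not overlap for either gene. Vps35, a core subunit of the retromer that returns receptors from endosomes, was at -0.35 ± 0.07, and Atp6v0b, a subunit of the proton pump that acidifies vesicles, at -0.27 ± 0.06. It was the single called one of 17 vacuolar ATPase subunits, also taken by symbol. Of 39 proteasome subunits taken in the same way, 0 were called by edgeR. Lower at an unadjusted p under 0.05 were 17 of the 39, against 9.68% of all genes. Pgk1, a glycolytic enzyme, was the single called member of 14 hypoxia response genes tested and fell by 0.25 ± 0.06. Of the lower genes that met the naming rule, the largest change was that of Ttc30a1, a component of intraflagellar transport, with 4.08, 4.97, 4.58 and 5.64 CPM at 15 weeks, against 8.44, 6.3, 6.6 and 7.24 CPM at 6 weeks. The groups did not overlap (log2 fold change -0.57 ± 0.13, edgeR adjusted p = 0.0448). Otub2, a deubiquitinating enzyme, was at -0.50 ± 0.11, and Xrcc4, a DNA end-joining factor, at -0.42 ± 0.09. Vstm2b, Eef1akmt1, Fpgt, Med29, Mrps24 and Cystm1 fell by 0.42 to 0.46 on the log2 scale.

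Several noncoding transcripts were among the higher genes. Vaultrc5, a short RNA of the vault particle, had 6.13, 5.17, 4.02 and 6.23 CPM at 15 weeks, against 0.914, 1.59, 1.85 and 1.12 CPM at 6 weeks. The groups were well apart (log2 fold change 1.99 ± 0.45, edgeR adjusted p = 0.0448). The long nuclear RNAs Meg3 and Miat rose by 0.73 ± 0.17 and 0.66 ± 0.14, with 1 or more 15-week libraries inside the 6-week range. Both were picked out after their values were seen, as were Srsf5 and Safb2, RNA-binding proteins of the nucleus that rose by 0.27 ± 0.06 and 0.54 ± 0.12. The median log2 fold change was 0.46 over 36 small nuclear RNAs, 0.23 over 106 small nucleolar RNAs and 0.37 over 37 sense intronic RNAs, each with 0 called. It was -0.46 over 23 miscellaneous RNAs, the class of Vaultrc5, 0.01 over 314 antisense RNAs and -0.06 over 46 bidirectional promoter RNAs. Called higher genes had a median transcript length of 4380 bases, 11 exons and a GC content of 53.8%, and called lower genes had 2627 bases, 5 exons and 48.1%. Over all genes tested these medians were 3274.5 bases, 7 exons and 49.6%. Across 16120 annotated genes, Spearman's rho between the log2 fold change and GC content was 0.21 under control and -0.12 under high-fat feeding. Genes are not independent replicates, and these values are descriptions.

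The largest fold changes among called genes belonged to 6 predicted transcripts that resemble one another and consist of a short repeated unit, picked out after their values were seen. Each of the other 5 aligns with Gm10800 over 509 to 682 bases at 89.2% to 91.6% identity in the GENCODE M21 transcripts, so a fragment could fit several of them. Fragments without a unique alignment were tallied apart from the gene counts. The first 240 bases of the coding transcripts Gm10800 (chromosome 2) and Gm21738 (chromosome 14) show the likeness. Capitals mark the 12-base string that recurs most often in Gm10800, 7 times over its 660 bases.
Gm10800: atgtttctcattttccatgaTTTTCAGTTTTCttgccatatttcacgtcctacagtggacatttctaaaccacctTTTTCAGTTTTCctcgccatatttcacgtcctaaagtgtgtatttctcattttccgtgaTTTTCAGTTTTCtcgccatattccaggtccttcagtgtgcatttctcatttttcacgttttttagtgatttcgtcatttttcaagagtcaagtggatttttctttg
Gm21738: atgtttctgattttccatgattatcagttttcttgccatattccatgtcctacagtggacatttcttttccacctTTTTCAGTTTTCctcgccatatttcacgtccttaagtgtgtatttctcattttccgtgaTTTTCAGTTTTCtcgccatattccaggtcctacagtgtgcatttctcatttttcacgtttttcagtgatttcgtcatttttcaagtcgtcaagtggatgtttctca
Gm10800 was at 479, 276, 6.19 and 167 CPM at 15 weeks, against 5.84, 7.9, 11.5 and 1.51 CPM at 6 weeks. Replicate 3 at 15 weeks, the library low in injury score, lay within the 6-week range and the other 3 were far above it, so the groups overlapped. The log2 fold change was 5.15 ± 0.99 (edgeR adjusted p = 0.0357). Gm21738, Gm11168, Gm10718, Gm26870 and Gm10801 had log2 fold changes of 4.38 to 4.74, and in each of them the groups overlapped as well. Levels were low: Gm11168 and Gm10718 had means of 2.89 and 2.93 CPM at 15 weeks, against 0.117 and 0.133 CPM at 6 weeks. Gm10722 and Gm10717, predicted transcripts looked up with this group, were not called. Their log2 fold changes were 3.88 ± 0.94 and 3.50 ± 0.89 (edgeR adjusted p = 0.066 and 0.081). Gm26870, which holds the repeat on the opposite strand, is the noncoding one. On the high-fat diet Gm10800 was at 3.12, 130, 127, 103, 94.7 and 40 CPM at 15 weeks, against 2.14, 16.1, 16.6, 9.11, 5.32 and 11.8 CPM at 6 weeks. There too the single low 15-week library, replicate 1, was the one of lowest injury score (0.329). On the control diet, 6-week replicate 2 had 7.9 CPM at a score of 0.978, and 15-week replicate 4 had 167 CPM at 0.845. Gm10800 was called again with the score as a covariate, as were all 92 genes. A link between Gm10800 and the score was not tested beyond these values. Control-diet sham libraries were at 0.553, 0.699 and 0.777 CPM.

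**Figure D4:**
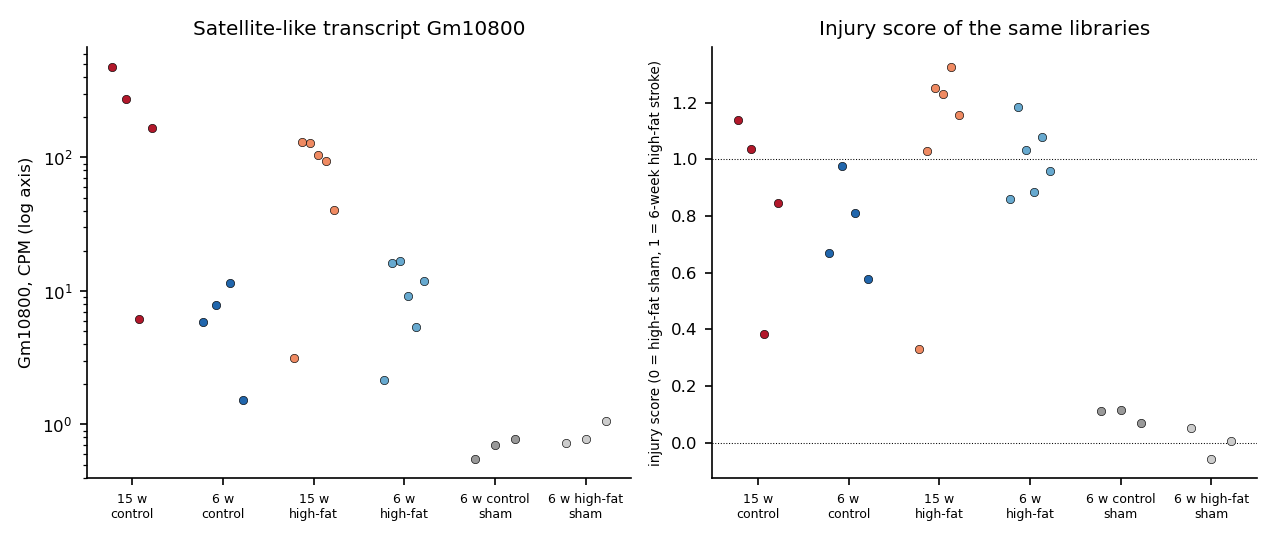
Level of Gm10800 (CPM, log axis) and injury score (0 = high-fat sham, 1 = 6-week high-fat stroke) in all 26 libraries by group. Replicate 3 at 15 weeks on the control diet and replicate 1 at 15 weeks on the high-fat diet, with injury scores of 0.383 and 0.329, are the 15-week libraries with Gm10800 at 6.19 and 3.12 CPM.

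The labelled tissue was cortex. The mean of 20 excitatory neuron genes was 7.25 to 7.61 log2 CPM at 15 weeks and 7.22 to 7.42 at 6 weeks. Of these genes 0 were called by edgeR. At an unadjusted p under 0.05, 5 were higher and 1 lower, against 7.12% and 9.68% of all genes. Striatum markers had larger differences. All 9 striatum markers, genes of the medium spiny neurons beneath the cortex, were below 0 with a median log2 fold change of -1.34. Of these 9, 7 were lower at an unadjusted p under 0.05 in edgeR, against 9.68% of all genes, and 0 were called. Pde10a, a phosphodiesterase of those neurons, had 87.4, 70.5, 186 and 128 CPM at 15 weeks, against 185, 416, 402 and 272 CPM at 6 weeks, a narrow overlap (edgeR adjusted p = 0.192). The list mean was 4.22, 3.90, 5.37 and 4.84 log2 CPM at 15 weeks, against 5.33, 6.43, 6.35 and 5.76 at 6 weeks. Its median on the high-fat diet was 0.29. On the control diet the median was -0.04 over 8 hippocampus markers and -0.17 over 7 choroid plexus markers, with 0 called and 0 at an unadjusted p under 0.05 in either list. With the striatum list mean as a covariate, an alternative added after seeing the data, 0 genes were called on the control diet, with 2100 at an unadjusted p under 0.05, and the medians were -0.13 over the oxidative phosphorylation list, 0.49 over the immediate early list and 0.55 over the matrix list. All 6 blood cell genes were below 0, with a median of -0.55 and 0 called. Of these 6, 4 were lower at an unadjusted p under 0.05 in edgeR, against 9.68% of all genes. In 3 of them the groups did not overlap, against 9.38% of all genes. The share of haemoglobin counts was 0.0124% ± 0.0013 at 15 weeks and 0.0186% ± 0.00278 at 6 weeks (SD, n = 4 each; exact permutation p = 0.0286, 0.0571 adjusted over 4 measures). Xist was at 415 to 521 CPM at 15 weeks and 389 to 493 CPM at 6 weeks, and Y-linked counts were 0 in all 8 libraries. The part of striatal tissue and blood in the differences above was not tested beyond these values.

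The high-fat diet offers the same 15 to 6 week contrast in 12 libraries that share none with the control diet. On that diet too, time on the diet, age and separate handling of the arms cannot be told apart. There 384 genes were called (2.35% of genes tested), 120 higher (0.735%) and 264 lower (1.62%). The mean share of counts outside genes was 27.4% at 15 weeks and 21.6% at 6 weeks there. With that share as a covariate, 0 genes were called. Of the 92 genes called under control feeding, 90 had the same sign under high-fat feeding, against 69.4% of all genes. Called on both diets, in the same direction, were 35 genes, which is 38.0% of the control-diet calls and 9.11% of the high-fat calls, with 14 higher and 21 lower, and 0 were called in opposite directions. The shared genes included Vaultrc5 (high-fat log2 fold change 1.58, edgeR adjusted p = 0.019), Meg3, Arhgef1, Cox7a2, Atp5j2, Ndufa2, Fars2, Vps35 and Otub2.

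Several leading genes had small high-fat values. Junb had a log2 fold change of 0.00 there, with 46.2 to 77.8 CPM at 15 weeks and 58.9 to 77.7 CPM at 6 weeks. Klf4 was at 0.29 (edgeR adjusted p = 0.306) and Creb3l1 at 0.40 (adjusted p = 0.449). Ap1s2, lower on the control diet, was at 0.16. The test of the difference between the diets, the interaction in edgeR, called 0 of 16325 genes (0%), with 792 at an unadjusted p under 0.05 and a smallest adjusted p of 0.946. DESeq2 and voom also called 0, with 793 and 1085 at an unadjusted p under 0.05. Of the 92 control-diet calls, 33 had an unadjusted p under 0.05 for the difference in edgeR. They were selected on the control-diet change, which is part of that difference. The interaction was 0.75 ± 0.22 on the log2 scale for Junb and 0.77 ± 0.23 for Klf4, and neither passed adjustment (adjusted p = 0.946 for both in edgeR). The diets are thus not shown to differ in any gene.

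**Figure D5:**
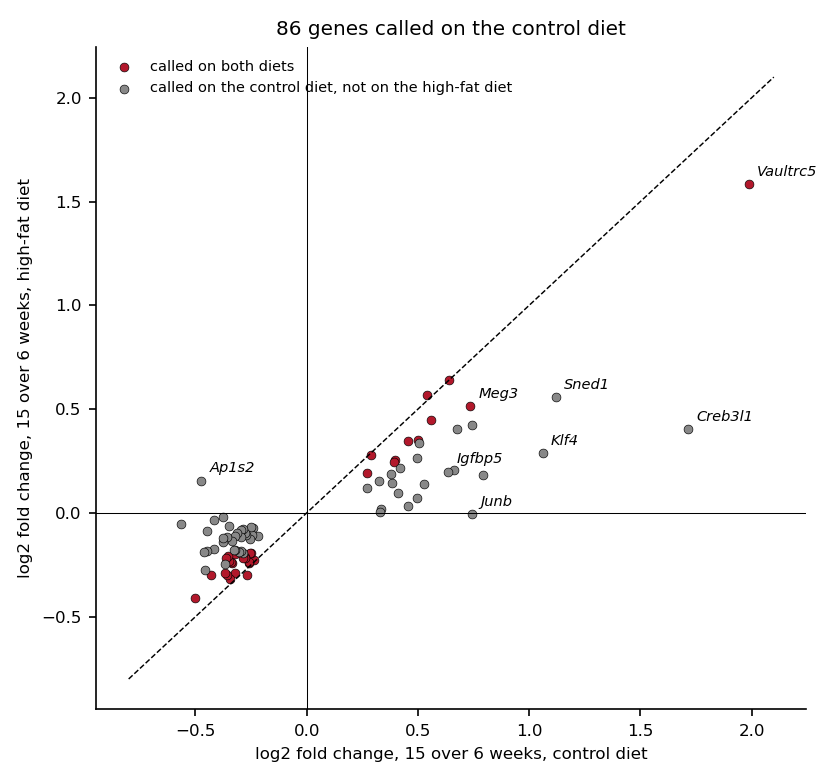
Log2 fold change of 15 over 6 weeks for control (horizontal) and high-fat feeding (vertical) for 86 of the 92 genes called on the control diet. The 6 satellite-like transcripts are off the scale and left out. The dashed line marks equal change. Vaultrc5 lies near the line, at 1.99 and 1.58, while Junb and Klf4 lie near 0 on the vertical axis, at 0.00 and 0.29.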

How the data were processed

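Stranded total RNA libraries of mouse cortex were sequenced as paired ends (labels' protocols). The submitters' processing notes name the build mm9 and the tools HTSeq, featureCounts, STAR and Trim Galore; their roles, versions and strand setting are not given in the sources used here. The authors deposited raw counts per Ensembl gene, 1 table per library. The 5 summary entries, 45.7% to 58.2% of all counts, entered neither library sizes nor tests. Names came from GENCODE M21 (37607 of 39179 identifiers matched), and promoter sequences from RefSeq.

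Counts that passed filterByExpr (minimum count 10) were TMM-scaled, and 1 model of 6 groups was fitted to all 26 libraries with edgeR 4.0.16 (robust quasi-likelihood, R 4.3.3), with Benjamini-Hochberg adjustment over 16325 genes. The common dispersion was 0.0184, a coefficient of variation of 0.136. The SE is the log2 fold change divided by the square root of F. List means are of log2 CPM with a prior count of 2. Genes near the filter rest on about 10 counts, so small changes in them are not detectable. Pairs of libraries within the 2 groups differed by 5.44 to 25.2 times the chi-square of counting alone.

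Named genes were the 10 largest changes among called genes in each direction, given a mean CPM of at least 1 and no overlap, and up to 4 members of smallest p per list; others are marked as picked later. The members and lists were chosen with earlier results of these data known. Alternatives were RLE size factors, DESeq2 1.42.0, voom in limma 3.58.1, other filters, a non-robust fit, only the groups compared, covariates, a surrogate variable (sva 3.50.0), leaving out haemoglobin, ribosomal RNA and mitochondrial genes, and leaving out each library. The striatum covariate and the joint omission of the libraries of lowest injury score were added after seeing the data.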

Additional observations from a re-analysis of the deposited data

Results flagged for a closer look

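Of 158 groups of values examined, 12 held a library whose gap to the next one was above Dixon's 95% critical value, and chance flags about 1 group in 20. Among the 4 libraries at 15 weeks on the control diet, a single library stood apart for 7 genes. It was the highest for Arhgef1 (22.6 CPM), Pgk1 (248 CPM) and Vps35 (208 CPM), and the lowest for Hdac7 (13.4 CPM), Safb2 (25.1 CPM), Ap1s1 (95.8 CPM) and Ap1s2 (29 CPM). Replicate 2 was that library for Hdac7, Safb2, Pgk1 and Vps35, replicate 1 for Arhgef1 and Ap1s1, and replicate 4 for Ap1s2. At 6 weeks on the control diet, replicate 3 stood above the others for the satellite-like Gm26870 (6.08 CPM) and below them for the homeostatic astrocyte list mean (7.29 log2 CPM), and replicate 4 stood below them for the circadian clock list mean (5.07 log2 CPM). On the high-fat diet, replicate 6 at 6 weeks had the highest share of mitochondrially encoded counts (10.2%). Replicate 1 at 15 weeks had the lowest injury score (0.329).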

How the results depend on the processing

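The 92 genes called on the control diet became 44 with RLE size factors, 286 with DESeq2, 301 with voom, 61 with a minimum count of 50 and 362 with the injury score as a covariate. The count was 0 without a filter, with only the groups compared in the fit, with the share of counts outside genes as a covariate and with the striatum list mean as a covariate (2932, 2510, 1403 and 2100 genes at an unadjusted p under 0.05). It was 97 with a non-robust fit, 93 without mitochondrial, ribosomal RNA and haemoglobin genes and 75 with 1 surrogate variable, of which 16 were main calls. Leaving out 1 library gave 0 to 121 calls. No called gene reversed its direction, and 13 of the 92 were called in at least 10 of 20 alternatives. On the high-fat diet the 384 calls became 716 with DESeq2, 1812 with voom, 160 without a filter, 128 with only the groups compared, 0 with the share outside genes as a covariate (785 at an unadjusted p under 0.05), 762 with 1 surrogate variable, 987 with the injury score and 1712 without the 15-week libraries of lowest injury score on each diet. Leaving out 1 library gave 100 to 1189. The difference between the diets had 0 calls in every alternative run. The cause of these shifts was not tested. No paired analysis was possible because the labels give no replicate numbers; those used here follow accession order.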
